A study of Mus musculus and Homo sapiens with 34 samples.

Results

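Zinc transporters and metallothioneins were taken as every gene whose symbol begins with SLC30A or SLC39A followed by a number, or reads MT1 or MT2 with at most one further letter, in the mouse and human count tables. This gave 60 genes of 114320, of which 26 were among the 55450 mouse genes and 34 among the 58870 human genes. They comprised 10 SLC30A, 14 SLC39A and 2 metallothionein genes in mouse, and 10 SLC30A, 14 SLC39A and 10 metallothionein genes in human. The rule reads gene symbols alone, although the group was proposed with earlier results of these data known.

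The libraries were made from polyA RNA of spheroids. Spheroids of 3 lines labelled as colorectal carcinoma were grown for 7 days in ultra-low attachment plates with SIS ECM or as cells alone. In this field SIS ECM stands for small intestinal submucosa extracellular matrix, the material left when cells are removed from that tissue, and the labels do not spell the name out. CT26 (mouse) was represented by 6 SIS ECM and 6 cells-alone libraries. MC38 (mouse) had 5 SIS ECM libraries (numbers 1, 3, 4, 5 and 6) and 5 cells-alone libraries (numbers 1 to 5), and HT29 (human) had 6 SIS ECM and 6 cells-alone libraries. All groups shared the same serum-containing medium and the same harvest, in which 10 spheroids were pooled per tube, and no group carried a genetic change described in the labels. Each line is one established culture and stands for itself, not for colorectal tumours in general. Whether the libraries of a group stem from separate cultures is not stated, so the spread behind each p-value may be technical.

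Zinc cannot cross membranes unaided. SLC30A proteins (ZnT) carry it out of the cytosol into organelles, vesicles or the medium, whereas SLC39A proteins (ZIP) carry it into the cytosol from outside or from organelles. Metallothioneins are small cysteine-rich proteins that bind zinc and copper, and the zinc-sensing transcription factor MTF1 raises their genes through short metal response elements in the promoter. The same factor is known to act on SLC30A1, the exporter of the plasma membrane, and metallothionein genes also respond to oxidative stress and glucocorticoids.

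The promoters of Slc30a1, a textbook MTF1 target whose human counterpart rose in HT29, and of Slc30a4, the exporter whose response differed between the mouse lines, are shown for the metal response elements they hold. The sequences are from RefSeq on GRCm38.p6, written 5′ to 3′ on the strand of the gene, and end before its first annotated exon. Capitals mark whole matches on either strand to the core of the element, searched as TGCACNC or TGCGCNC. The Slc30a1 stretch is at chr1:191906531-191906766 on the plus strand and the Slc30a4 stretch at chr2:122702664-122702913 on the minus strand.
Slc30a1: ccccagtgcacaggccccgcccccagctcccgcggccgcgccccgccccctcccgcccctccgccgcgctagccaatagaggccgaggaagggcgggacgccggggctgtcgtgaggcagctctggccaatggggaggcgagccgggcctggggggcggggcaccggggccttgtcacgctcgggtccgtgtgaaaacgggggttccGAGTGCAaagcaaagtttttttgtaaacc
Slc30a4: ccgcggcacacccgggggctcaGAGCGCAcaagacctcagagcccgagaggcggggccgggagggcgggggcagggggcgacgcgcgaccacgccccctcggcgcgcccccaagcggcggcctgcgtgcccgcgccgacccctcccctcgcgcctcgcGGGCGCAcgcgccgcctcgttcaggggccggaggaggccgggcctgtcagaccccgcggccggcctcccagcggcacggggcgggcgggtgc

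In windows of 300 bases, from 250 before the RefSeq start to 50 from it on, Slc30a1 held 2 matches and Slc30a4 held 3, of which 1 and 2 lie in the stretches above. The windows of the metallothionein genes held 3 matches in Mt1 and 4 in Mt2. Of 32851 such windows over mouse promoters, 25.7% held at least 1 match, 7.11% at least 2, 1.97% at least 3 and 0.517% at least 4. Among the zinc transporters 12 of 25 windows held a match, and the window of Slc39a7 held none. A match describes these letters only and does not show that a factor binds there.

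Levels are given as CPM, the counts of a gene relative to the total of its library, scaled by TMM factors that correct for library composition. Differences are log2 fold changes of SIS ECM over cells alone, with their SE, from edgeR's quasi-likelihood test in each line, and adjusted p-values are Benjamini-Hochberg values over all genes tested in that line. A gene is said to have risen or fallen where its adjusted p was below 0.05. Library totals were 15826190 to 24196115 expected counts in mouse and 25515239 to 37001506 in human, so that 3 counts correspond to 0.142 to 0.19 CPM in CT26, 0.124 to 0.159 CPM in MC38 and 0.0811 to 0.118 CPM in HT29. Markers of colorectal epithelium summed to 8470 to 10315 CPM in HT29 SIS ECM and 9222 to 10564 CPM in HT29 cells alone. Their sum was 69.4 to 84.9 CPM in CT26 SIS ECM and 45.6 to 59.0 CPM in CT26 cells alone. In MC38 it was 0.264 to 1.42 CPM with SIS ECM and 0.629 to 1.07 CPM without, and 4 of 10 markers, Epcam among them, were at 0 in all libraries. HT29 thus carried the epithelial markers of its label and MC38 nearly lacked them. In CT26 the sum came mostly from Krt20, which averaged 50.9 CPM with SIS ECM and 43.6 CPM in cells alone. Epcam, Cdh1 and Cdx1 had no count in CT26, and Krt8, Krt19 and Vil1 were too low to test there. Fibroblast markers summed to 439 to 678 CPM with SIS ECM and 502 to 764 CPM in cells alone in CT26, and to at most 1.62 CPM in HT29. The CT26 sum came mostly from Col1a2, which averaged 444 CPM with SIS ECM and 543 CPM in cells alone. Thy1 had no count in CT26, and Fap and Lum were too low to test there. Markers of endothelium, smooth muscle and leukocytes stayed at or below 10.2 CPM in sum in the mouse lines. In HT29 the leukocyte sum of 1717 to 2086 CPM with SIS ECM and 1870 to 2036 CPM without came mostly from lysozyme (LYZ), with the pan-leukocyte gene PTPRC at 0.0109 and 0.0164 CPM. The mouse libraries also differed broadly between numbers 1 to 3 and numbers 4 to 6, which the labels do not explain. In MC38, libraries 1 to 3 hold 2 SIS ECM and 3 cells-alone libraries, and libraries 4 to 6 hold 3 and 2.

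In MC38 spheroids with SIS ECM, both metallothionein genes fell, and so did the zinc importer genes Slc39a7, Slc39a8 and Slc39a11. In HT29 the importer genes SLC39A5, SLC39A7 and SLC39A14 fell and the exporter gene SLC30A1 rose, and no metallothionein was called. In CT26 the importer Slc39a1 fell and no other member passed. Of the members, 17 of 26 could be tested in CT26, 18 of 26 in MC38 and 23 of 34 in HT29, the others being too low. In CT26, 1 of 17 tested members was called, against 9.25% of all genes tested (6.15% higher and 3.1% lower). In MC38, 5 of 18 (27.8%) were called, all lower, against 9.17% of all genes (3.82% higher and 5.36% lower). In HT29, 4 of 23 (17.4%) were called, 1 higher and 3 lower, against 13.5% of all genes (7.75% higher and 5.79% lower). The MC38 count fell to 2 (Mt1 and Mt2) without cells-alone library 1 or 2, against 4.89% and 4.72% of all genes. It was 3 (with Slc39a7) when SIS ECM library 4, 5 or 6 or cells-alone library 5 was left out, against 5.48% to 6.9% of all genes. It was also 3 with library number as a block, against 9.01%, and without a filter on low counts, against 4.14%. Without cells-alone library 4 it was 6, against 14.7%. Adding the number range to the fit called 9 of 17 members in CT26 (52.9%; 2 higher, 7 lower), against 28.9% of all genes, and 7 of 18 in MC38 (38.9%; 1 higher, 6 lower), against 24.7%, and every member named above still passed. The CT26 share thus lay below that of all genes in the fit without this term and above it in the fit with it. Libraries 1 to 3 alone gave 5 of 17 in CT26 (29.4%, against 2484 of 12405 genes), 11 of 18 in MC38 (61.1%, against 39.7%) and 3 of 23 in HT29 (13.0%, against 4.69%). Libraries 4 to 6 alone gave 3 of 17 in CT26 (17.6%, against 19.0%), 4 of 18 in MC38 (22.2%, against 17.1%) and 1 of 23 in HT29 (4.35%, against 2.73%). The median log2 fold change of the tested members was −0.076 in CT26, −0.039 in MC38 and −0.030 in HT29, beside 0.0082, 0.0062 and −0.0046 over all genes. SIS ECM and cells-alone libraries did not overlap for 2 members in CT26 (6.95% of all genes did not), 5 in MC38 (9.65%) and 3 in HT29 (6.39%).

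**Figure D1:**
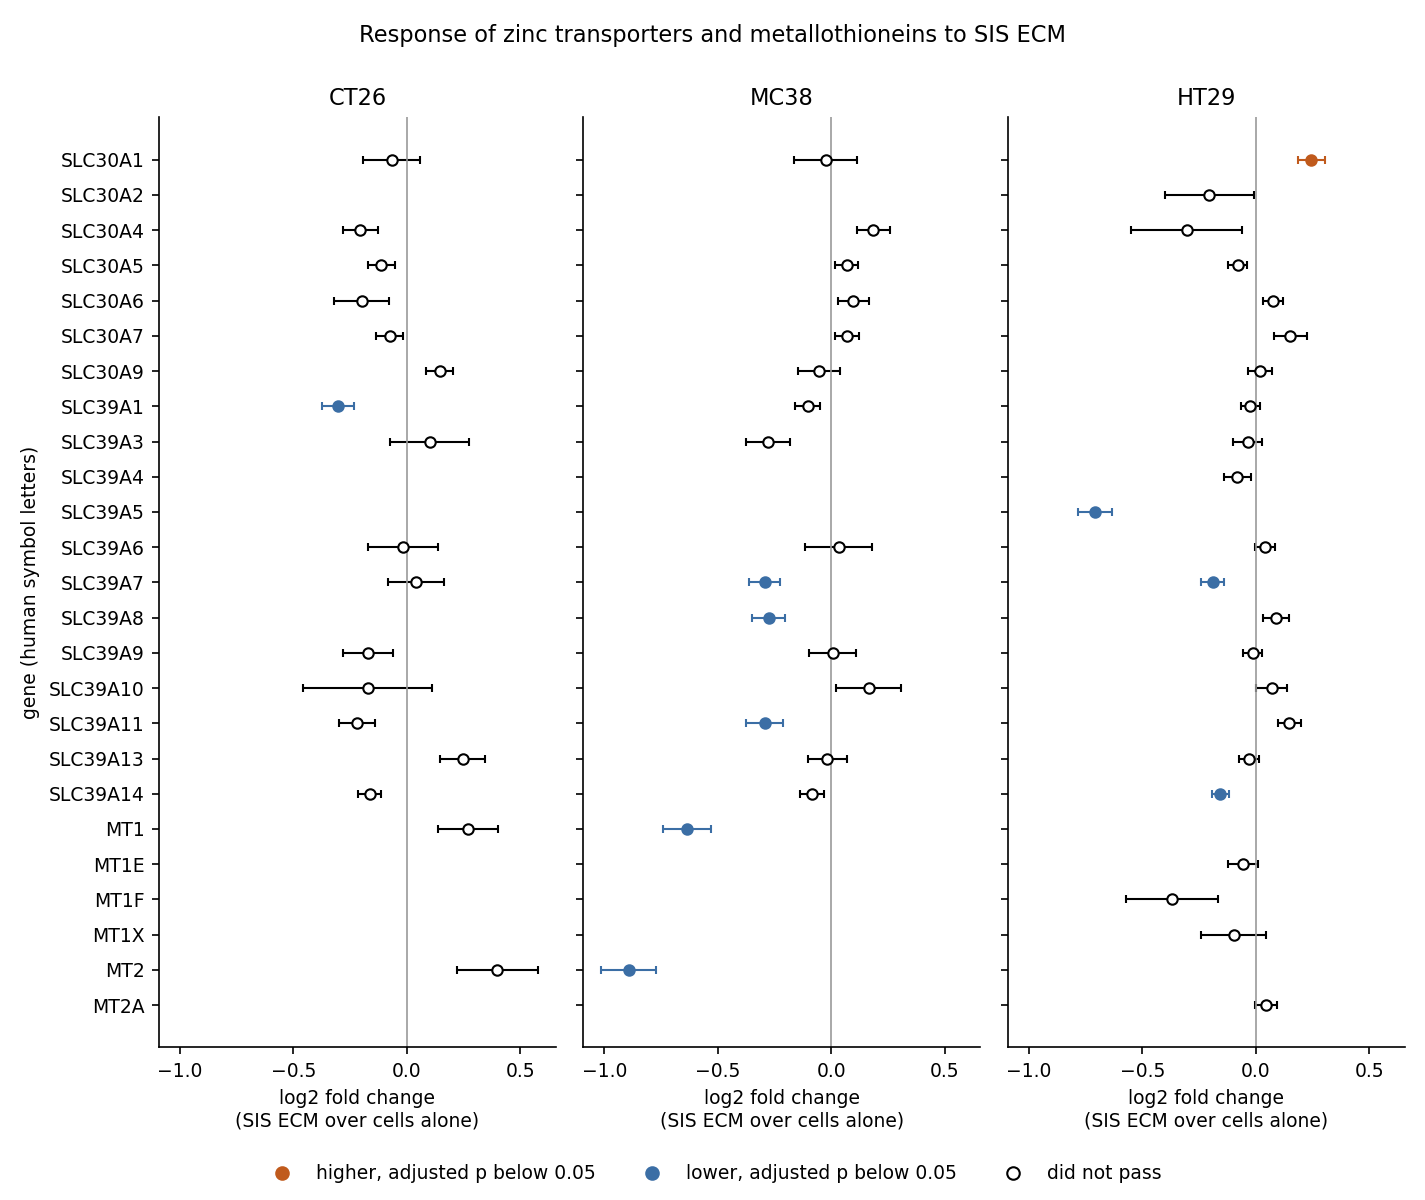
Log2 fold change of SIS ECM over cells alone for every tested member in CT26, MC38 and HT29, with bars of 1 SE. Filled points had an adjusted p below 0.05, and the lowest value in MC38 is that of Mt2 (−0.89) and the lowest in HT29 that of SLC39A5 (−0.71).

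In MC38 both metallothionein genes were lower with SIS ECM, Mt2 the more so. Mt2 (ENSMUSG00000031762.7) was measured at 87.3, 112, 73.8, 77.8 and 67.5 CPM in SIS ECM libraries 1, 3, 4, 5 and 6, against 161, 167, 162, 133 and 155 CPM in cells-alone libraries 1 to 5. Every SIS ECM library lay below every cells-alone library, and SIS ECM library 3 was the highest of its group. Mt2 averaged 83.7 ± 17.5 CPM with SIS ECM and 156 ± 13.3 CPM in cells alone (SD, n = 5 each), a log2 fold change of −0.89 ± 0.12 (SE, adjusted p = 0.00084). Mt1 (ENSMUSG00000031765.8) followed the same pattern. It stood at 46.6, 67.2, 49.6, 53.2 and 44.9 CPM in SIS ECM libraries, against 90.0, 84.5, 80.0, 68.6 and 83.5 CPM in cells-alone libraries. The groups again did not overlap, but SIS ECM library 3 and cells-alone library 4 were 67.2 and 68.6 CPM and nearly met. The means were 52.3 ± 8.93 and 81.3 ± 7.97 CPM (SD, n = 5 each), a log2 fold change of −0.64 ± 0.11 (SE, adjusted p = 0.0039). Summed over both genes, SIS ECM libraries held 112 to 179 CPM of metallothionein transcripts and cells-alone libraries 202 to 251 CPM. In bulk RNA, fewer cells of a kind and less RNA per cell cannot be told apart.

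The falls were seen in both number ranges. Within libraries 1 to 3 the log2 fold change of Mt2 was −0.72 and within libraries 4 to 6 it was −0.98. Those of Mt1 were −0.59 and −0.63. With any single MC38 library left out the log2 fold change stayed between −1.02 and −0.83 for Mt2 and between −0.74 and −0.59 for Mt1. The annotation of the mm10 build places Mt1 at chr8:94179082-94180327 and Mt2 at chr8:94172664-94173568, both on the plus strand. Reads of the antisense gene Gm45774, which overlaps Mt2, amounted to 2 to 11 counts per MC38 library. Beside these falls, the fibroblast markers of MC38 summed to 2681 to 4242 CPM with SIS ECM and 3621 to 4563 CPM in cells alone. Of 6 tested markers 2 were lower, where 5.36% of all genes were, and Thy1 was at 0 in all libraries. The part of these markers in the result was not tested.

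In CT26 the metallothioneins gave no call and leaned the other way. Mt2 ran from 35.7 through a median of 40.4 to 72.0 CPM with SIS ECM and from 27.7 through 36.1 to 42.2 CPM in cells alone. Mt1 ran from 33.2 through 42.9 to 56.6 CPM with SIS ECM and from 28.0 through 38.5 to 42.7 CPM in cells alone. The groups overlapped in both genes, and SIS ECM libraries 1 and 2 stood above all others, with Mt2 at 63.1 and 72.0 CPM and Mt1 at 50.5 and 56.6 CPM. The log2 fold change was 0.40 ± 0.18 for Mt2 (SE, adjusted p = 0.18) and 0.27 ± 0.13 for Mt1 (adjusted p = 0.23). With SIS ECM libraries 1 and 2 left out, a choice made after the values were seen, the log2 fold changes were 0.066 and 0.10. In libraries 1 to 3 they were 0.69 for Mt2 and 0.52 for Mt1, and in libraries 4 to 6 they were 0.055 and 0.031.

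The response of both genes differed between the mouse lines. Tested as an interaction over the 22 mouse libraries, the MC38 response minus the CT26 response was −1.30 ± 0.24 for Mt2 (SE, adjusted p = 0.0016) and −0.92 ± 0.19 for Mt1 (adjusted p = 0.0035). Of 18 members tested for this difference 3 passed, against 8.27% of 14080 genes. Without CT26 SIS ECM libraries 1 and 2 the difference was −0.96 for Mt2 (adjusted p = 0.0026) and −0.75 for Mt1 (adjusted p = 0.014). The lines also started from different levels. Cells-alone MC38 exceeded cells-alone CT26 by 1.92 ± 0.17 log2 units in Mt2 and by 0.97 ± 0.13 in Mt1 (SE, adjusted p = 3.5e-10 and 4.1e-07). Of all genes tested 78.1% differed between the lines in this way, so a difference in level is common. With SIS ECM the summed metallothionein level of MC38, 112 to 179 CPM, still lay mostly above that of CT26, 68.8 to 129 CPM, and the ranges overlapped.

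In HT29 the 4 metallothionein genes above the filter were not called. MT1E ran from 46.7 through 49.0 to 60.5 CPM with SIS ECM and from 47.0 through 53.2 to 57.8 CPM in cells alone. MT2A ran from 18.0 through 19.5 to 20.3 CPM with SIS ECM and from 17.4 through 18.7 to 19.6 CPM in cells alone. In both genes the groups overlapped over most of their range, and the log2 fold changes were −0.056 ± 0.066 for MT1E and 0.046 ± 0.049 for MT2A (SE, adjusted p = 0.63 and 0.59). MT1X ran from 2.81 through 3.31 to 4.20 CPM with SIS ECM and from 2.71 through 3.53 to 4.67 CPM in cells alone, a log2 fold change of −0.097 ± 0.14 (adjusted p = 0.71). MT1F ran from 0.426 through 0.619 to 0.903 CPM with SIS ECM and from 0.569 through 0.804 to 0.979 CPM in cells alone, a log2 fold change of −0.37 ± 0.20 (adjusted p = 0.25). The other 6 genes were too low to test, and MT1B and MT1M had no count in any of 12 libraries. Human MT1 genes are near-identical copies of each other, so the split of reads between them is uncertain. The sum over all 10 was 68.5 to 84.3 CPM with SIS ECM and 69.1 to 82.4 CPM in cells alone, so that the whole family overlapped between the cultures.

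**Figure D2:**
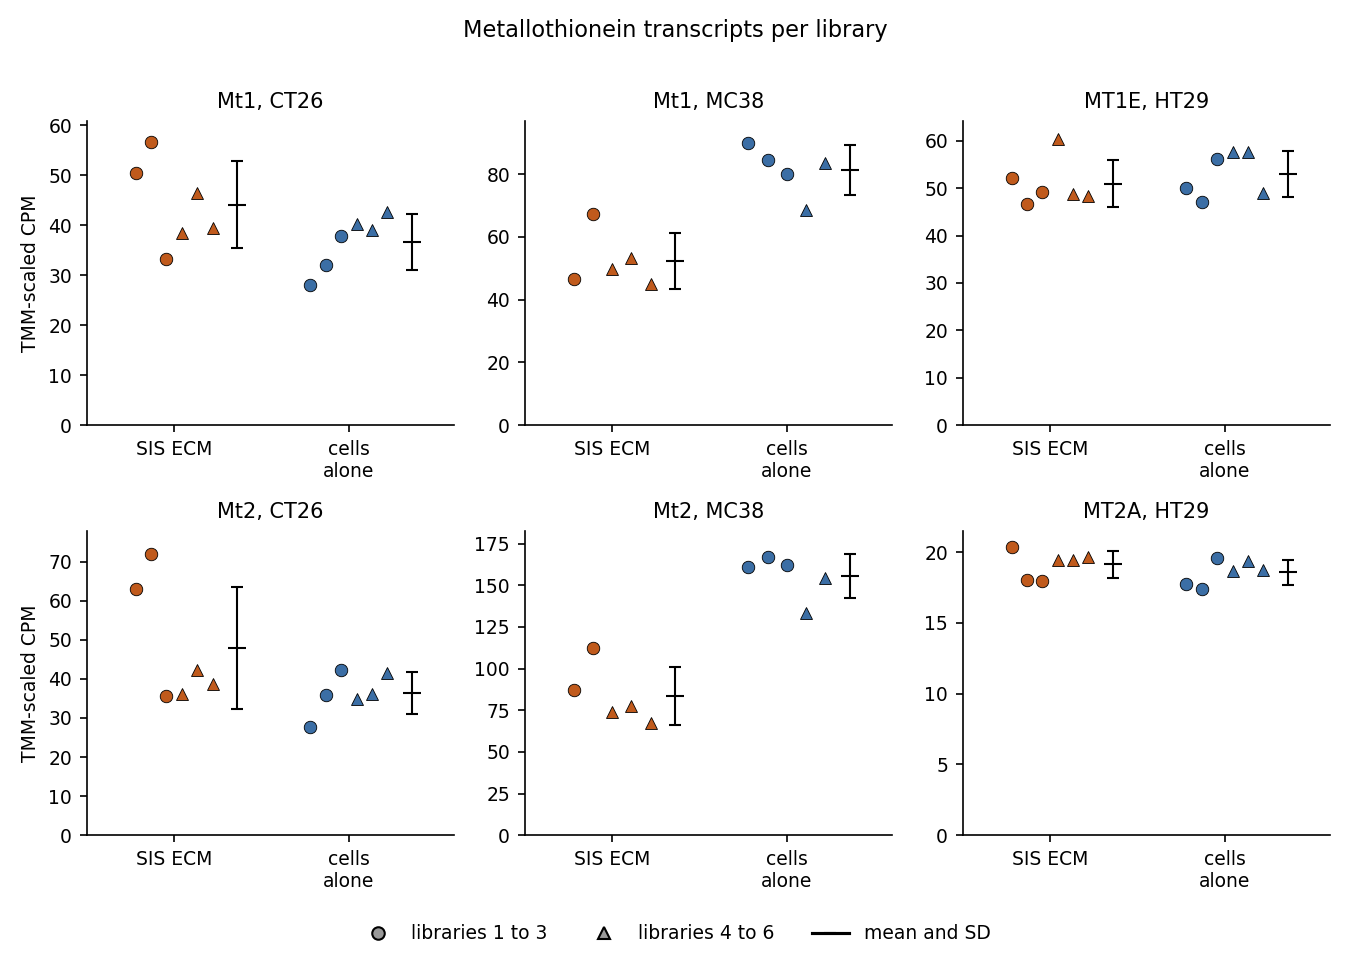
TMM-scaled CPM of the main metallothionein genes in each library, SIS ECM left and cells alone right, with circles for libraries 1 to 3, triangles for libraries 4 to 6, and the mean with SD beside each group. In MC38 the SIS ECM libraries of Mt2 (67.5 to 112 CPM) lie below all cells-alone libraries (133 to 167 CPM), while in HT29 the groups overlap.

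Among the exporters, SLC30A1 in HT29 was the one gene called in any line. SLC30A1, which releases zinc across the plasma membrane, ran from 71.9 through 81.0 to 88.1 CPM with SIS ECM and from 58.2 through 68.5 to 75.7 CPM in cells alone. SIS ECM library 1 (71.9 CPM) lay within the range of the cells-alone libraries and the other 5 lay above it. The means were 80.4 ± 5.35 and 67.9 ± 5.77 CPM (SD, n = 6 each), a log2 fold change of 0.25 ± 0.058 (SE, adjusted p = 0.0086). It was 0.33 in libraries 1 to 3 (adjusted p = 0.048) and 0.16 in libraries 4 to 6, where it did not pass (adjusted p = 0.27). In MC38, where the metallothioneins fell, Slc30a1 averaged 10.5 ± 1.90 CPM with SIS ECM and 10.6 ± 1.64 CPM in cells alone, a log2 fold change of −0.024 ± 0.14 (adjusted p = 0.93). In CT26 it averaged 15.2 ± 3.07 and 15.9 ± 1.54 CPM, with a log2 fold change of −0.067 ± 0.12 (adjusted p = 0.80). The sign of both small changes in mouse depended on the libraries used. The antisense gene 1700034H15Rik overlaps mouse Slc30a1 and held 1 to 13 counts per library.

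Slc30a4 (chr2:122681233-122702663, minus strand), which loads zinc into endosomes and secretory vesicles, responded differently in the mouse lines. It averaged 322 ± 27.1 CPM with SIS ECM and 283 ± 19.0 CPM in cells alone in MC38 (SD, n = 5 each), and 495 ± 46.4 and 571 ± 37.0 CPM in CT26 (SD, n = 6 each). Neither change passed by itself, with log2 fold changes of 0.19 ± 0.073 in MC38 (SE, adjusted p = 0.13) and −0.21 ± 0.077 in CT26 (adjusted p = 0.12). The CT26 change passed with DESeq2 (log2 fold change −0.22, adjusted p = 0.048), with a number-range term (adjusted p = 0.026) and in libraries 1 to 3 alone (adjusted p = 0.026). The difference between them was 0.38 ± 0.11 (SE, adjusted p = 0.028). It missed the threshold when CT26 SIS ECM library 1, MC38 cells-alone library 1, 2 or 3 or MC38 SIS ECM library 1 or 3 was left out, with adjusted p-values up to 0.061. The antisense gene 4930417H01Rik, which overlaps Slc30a4, held at most 6 counts per library. The changes were larger in libraries 1 to 3, with log2 fold changes of 0.36 in MC38 and −0.33 in CT26, against 0.0061 and −0.087 in libraries 4 to 6.

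The other exporters showed small differences. In the tested genes of the secretory pathway (SLC30A5, SLC30A6 and SLC30A7) and the mitochondrial exporter SLC30A9, log2 fold changes ran from −0.20 (Slc30a6, CT26) to 0.15 (SLC30A7, HT29), and none passed. SLC30A7 passed in HT29 without SIS ECM library 1 (adjusted p = 0.043). SLC30A2 and SLC30A4 in HT29 were below 1 CPM in every library, with log2 fold changes of −0.20 and −0.30 (adjusted p = 0.54 and 0.45). The exporters of synaptic vesicles (SLC30A3), insulin granules (SLC30A8) and manganese (SLC30A10) were too low to test in all 3 lines, as was Slc30a2 in mouse, and SLC30A8 had no count in any library.

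Importers held most of the called transporters and also most of the tested ones. Of the tested exporters, 0 of 6 were called in CT26, 0 of 6 in MC38 and 1 of 7 in HT29. Of the tested importers, 1 of 9 was called in CT26 (11.1%), 3 of 10 in MC38 (30%) and 3 of 12 in HT29 (25%). The shares of all genes were 9.25%, 9.17% and 13.5%. In HT29 the clearest was SLC39A5, known in mouse as an importer of the basolateral membrane of intestinal cells. It ran from 5.84 through 6.11 to 7.79 CPM with SIS ECM and from 10.1 through 10.6 to 11.4 CPM in cells alone. All 6 SIS ECM libraries lay well below all 6 cells-alone libraries. The means were 6.47 ± 0.781 and 10.6 ± 0.546 CPM (SD, n = 6 each), a log2 fold change of −0.71 ± 0.075 (SE, adjusted p = 6.9e-06). Of 10 epithelial markers tested in HT29, 3 fell, where 5.79% of all genes did: CDH17, VIL1 and KRT20 (log2 fold changes −0.57, −0.23 and −0.28). The others, EPCAM and CDH1 among them, were not called. The part of these markers in the result was not tested.

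SLC39A7, which releases zinc from the endoplasmic reticulum, fell in HT29 and MC38. In HT29 it ran from 155 through 177 to 181 CPM with SIS ECM and from 183 through 196 to 214 CPM in cells alone, without overlap and with SIS ECM library 4 lowest. The log2 fold change was −0.19 ± 0.050 (SE, adjusted p = 0.018), with −0.22 in libraries 1 to 3 (adjusted p = 0.044) and −0.16 in libraries 4 to 6 (adjusted p = 0.28). In MC38, Slc39a7 was measured at 78.0, 76.6, 75.9, 78.4 and 75.4 CPM in SIS ECM libraries, against 104, 102, 94.5, 80.9 and 89.8 CPM in cells-alone libraries. The SIS ECM libraries lay close together, and the cells-alone libraries were spread widely above them. The log2 fold change was −0.29 ± 0.068 (SE, adjusted p = 0.019), with −0.38 in libraries 1 to 3 and −0.16 in libraries 4 to 6 (adjusted p = 0.069 there). Without cells-alone library 1 or 2 the adjusted p was 0.051 or 0.059. The authors' deposited table gives a log2 fold change of −0.31 with an adjusted p of 0.10 for this gene. Slc39a7, at chr17:34028269-34031682 on the minus strand, overlaps the predicted gene Gm20427 on the same strand. The counts of Slc39a7 were not whole in 7 of 10 MC38 libraries, so part of its reads could belong to either. Gm20427 held 0 to 60.6 counts per MC38 library, against 1431 to 2322 for Slc39a7. In CT26 it had a log2 fold change of 0.040 ± 0.13 (adjusted p = 0.89), and the difference between the mouse lines of −0.34 ± 0.16 did not pass (adjusted p = 0.19).

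SLC39A14, which carries zinc, iron and manganese into cells, fell slightly in HT29. It ran from 116 through 121 to 124 CPM with SIS ECM and from 126 through 134 to 141 CPM in cells alone, without overlap, a log2 fold change of −0.16 ± 0.038 (SE, adjusted p = 0.011). Neither libraries 1 to 3 alone (−0.18, adjusted p = 0.079) nor libraries 4 to 6 alone (−0.13, adjusted p = 0.34) passed. In CT26, Slc39a14 ran from 99.4 through 107 to 112 CPM with SIS ECM and from 114 through 120 to 122 CPM in cells alone. The groups did not overlap there either, and the log2 fold change of −0.16 ± 0.051 missed the threshold (adjusted p = 0.059). It passed with DESeq2 (log2 fold change −0.17, adjusted p = 0.0012), with a number-range term (adjusted p = 0.0060), in libraries 1 to 3 alone (adjusted p = 0.042) and with library number as a block (adjusted p = 0.040). In the fit with the block, Slc39a9 passed as well (log2 fold change −0.18, adjusted p = 0.049), so that 3 members were called. In MC38 the log2 fold change was −0.085 ± 0.052 (adjusted p = 0.33).

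In CT26 the called gene was Slc39a1, a zinc importer of the plasma membrane, at chr3:90248172-90253612 on the plus strand. It ran from 83.2 through 89.6 to 94.6 CPM with SIS ECM and from 97.7 through 108 to 124 CPM in cells alone. The groups did not overlap, and both were lower in libraries 4 to 6 than in libraries 1 to 3. The means were 89.4 ± 4.77 and 110 ± 10.9 CPM (SD, n = 6 each), a log2 fold change of −0.30 ± 0.071 (SE, adjusted p = 0.016). It was −0.36 in libraries 1 to 3 and −0.24 in libraries 4 to 6. Of the epithelial markers, 2 of 4 tested rose in CT26 (Krt18, log2 fold change 1.11, and Cdh17, 1.85). Of the fibroblast markers 1 of 6 rose (Dcn, 0.65), and of all genes 6.15% rose. The part of these markers in the result was not tested. In MC38 the log2 fold change of Slc39a1 was −0.10 ± 0.054 (adjusted p = 0.24) and in HT29 that of SLC39A1 was −0.024 ± 0.043 (adjusted p = 0.76).

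In MC38, Slc39a8 and Slc39a11 also fell, both near the threshold. Slc39a8, an importer of zinc, manganese and cadmium at chr3:135825279-135888572 on the plus strand, was measured at 16.4, 14.4, 14.2, 14.04 and 15.02 CPM in SIS ECM libraries, against 18.8, 19.2, 16.7, 17.2 and 17.8 CPM in cells-alone libraries. The groups did not overlap but came close, and the log2 fold change was −0.28 ± 0.073 (SE, adjusted p = 0.034). Slc39a11, an importer of the Golgi at chr11:113244853-113650079 on the minus strand, was measured at 36.1, 35.3, 31.0, 29.5 and 29.6 CPM in SIS ECM libraries, against 38.98, 42.1, 42.1, 34.1 and 40.7 CPM in cells-alone libraries. Cells-alone library 4 lay within the SIS ECM range, and the log2 fold change was −0.29 ± 0.082 (SE, adjusted p = 0.042). Slc39a8 missed the threshold without cells-alone library 1, 2 or 5 or SIS ECM library 3, 4, 5 or 6 (adjusted p up to 0.089), and Slc39a11 without cells-alone library 1, 2, 3 or 5 or SIS ECM library 4, 5 or 6 (up to 0.10). With library number as a block the adjusted p was 0.078 for Slc39a8 and 0.082 for Slc39a11, which left 3 members called. Within libraries 1 to 3 and 4 to 6 the log2 fold changes were −0.25 and −0.28 for Slc39a8 and −0.21 and −0.32 for Slc39a11. Slc39a3, a plasma-membrane importer, lay at 8.40 to 11.2 CPM with SIS ECM and 11.3 to 14.1 CPM in cells alone, did not overlap and did not pass (log2 fold change −0.28 ± 0.097, adjusted p = 0.089). It passed without cells-alone library 4 (adjusted p = 0.049).

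The response of SLC39A11 differed between HT29 and the mouse lines. With 1 human line, species and line cannot be told apart. Its log2 fold change was 0.15 ± 0.050 in HT29 (SE, adjusted p = 0.059), −0.29 in MC38 and −0.22 ± 0.081 in CT26 (adjusted p = 0.11). In HT29 it ran from 20.9 through 23.6 to 24.9 CPM with SIS ECM and from 20.2 through 20.9 to 21.4 CPM in cells alone, so that most SIS ECM libraries stood above the cells-alone libraries. It passed there without SIS ECM library 2 or 4 (adjusted p = 0.030 and 0.027). The authors' deposited table gives SLC39A11 in HT29 a log2 fold change of 0.15 with an adjusted p of 0.049. The HT29 response minus the mean mouse response was 0.39 ± 0.083 (SE, adjusted p = 0.0026), tested over genes whose symbols match between species. Of 19 members in that fit 2 passed, against 5.44% of 12272 genes, a count that includes a gene nearly absent in mouse. The other was SLC39A4, the importer of dietary zinc in the gut (−2.40 ± 0.71, adjusted p = 0.042), where mouse held 6 counts in all CT26 SIS ECM libraries together and 0 in CT26 cells alone, and 10 and 5 in MC38. SLC39A4 entered that fit through its level in HT29 and was too low to test within either mouse line. Its difference rests on these few counts and is not read as a difference in response. It missed the threshold with any of 18 of the 34 libraries left out (adjusted p up to 0.20).

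The remaining importers gave no call. In CT26, Slc39a13, an importer of the Golgi and its vesicles, averaged 49.8 ± 7.90 CPM with SIS ECM and 42.0 ± 2.97 CPM in cells alone (SD, n = 6 each), a log2 fold change of 0.25 ± 0.099 (SE, adjusted p = 0.14). It passed without SIS ECM library 4 (adjusted p = 0.038) and where the fit had a number-range term (adjusted p = 0.040). SLC39A9, an importer of the Golgi, had a log2 fold change of −0.17 in CT26 (adjusted p = 0.37), 0.0060 in MC38 (0.98) and −0.014 in HT29 (0.88). In mouse, Slc39a13 overlaps Psmc3 and Slc39a9 overlaps Erh on the opposite strand, both with 894 or more counts in every library, so reads could be shared if counting took no account of strand. Too low to test were Slc39a2, Slc39a4, Slc39a5 and Slc39a12 in both mouse lines, Slc39a8 in CT26, and SLC39A2 and SLC39A12 in HT29.

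**Figure D3:**
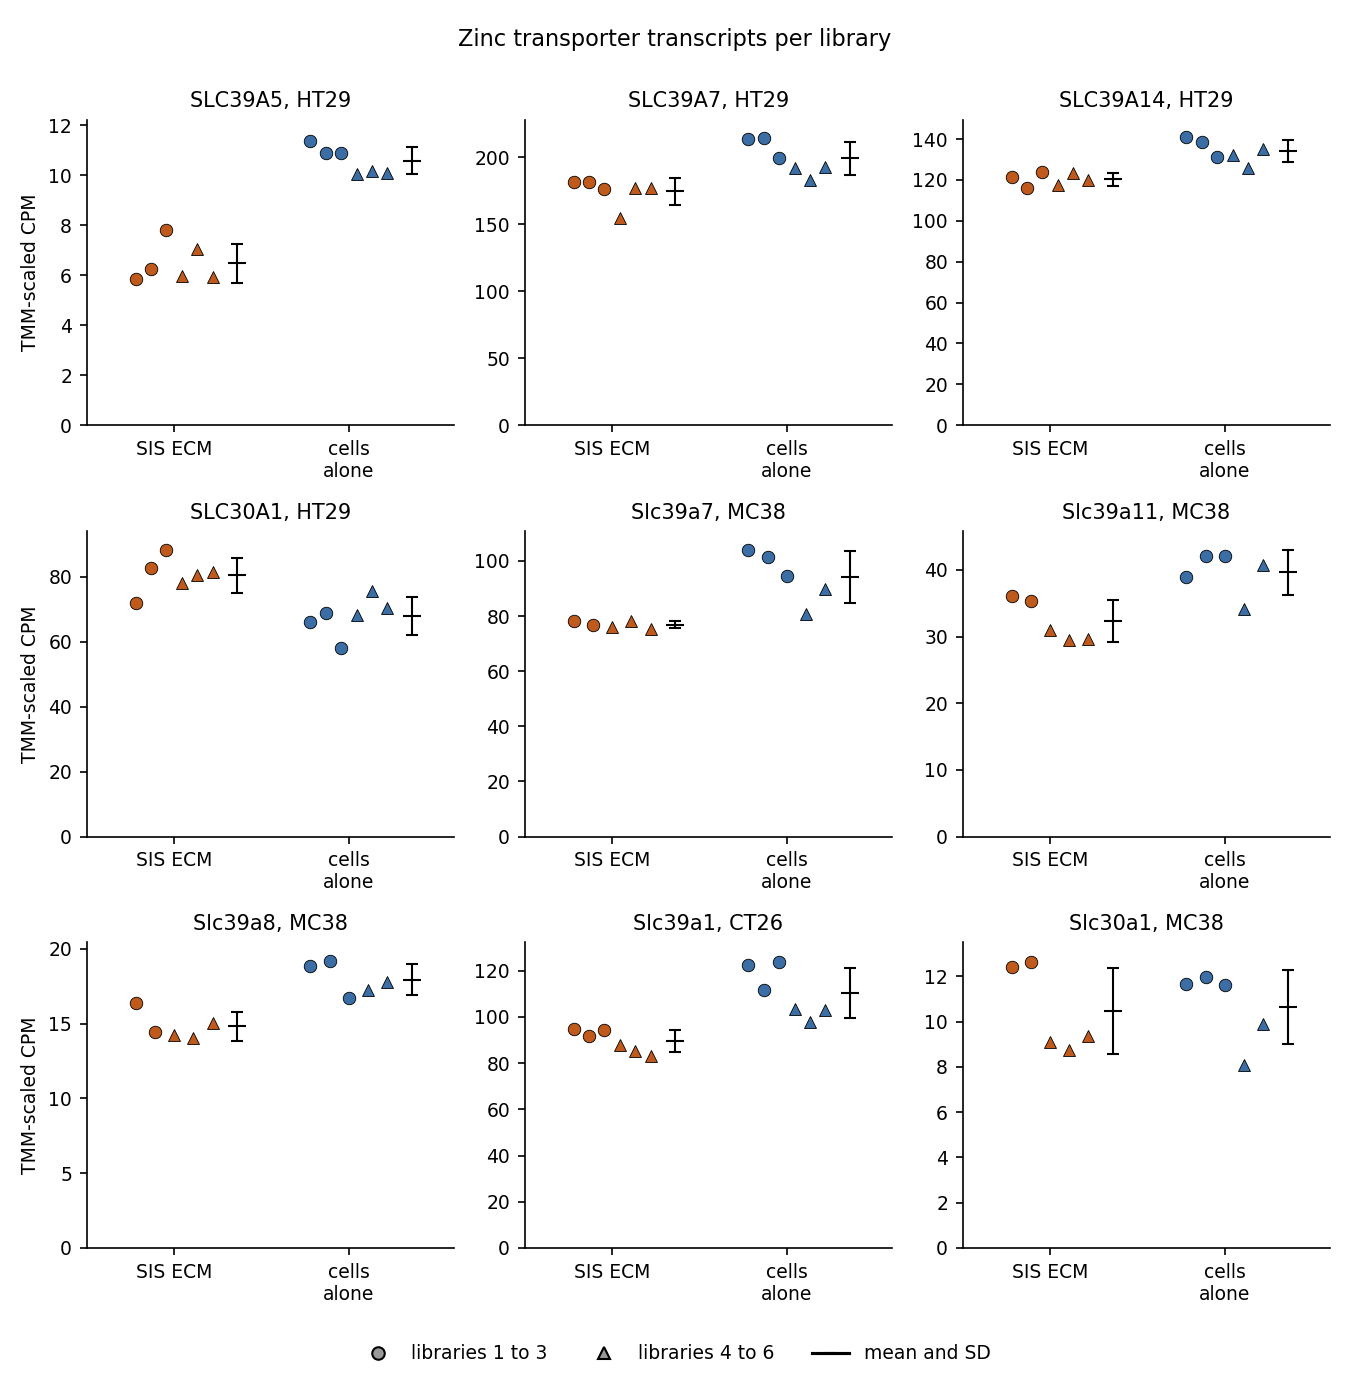
TMM-scaled CPM of the called transporters, and of Slc30a1 in MC38, in each library, SIS ECM left and cells alone right, with circles for libraries 1 to 3, triangles for libraries 4 to 6, and the mean with SD beside each group. SLC39A5 in HT29 is clearly separated (5.84 to 7.79 against 10.1 to 11.4 CPM), and Slc30a1 in MC38 overlaps throughout.

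Some transporters were readily counted in part of the lines and very low or at 0 in the others. In CT26, Slc39a8 had 0 counts in all 12 libraries, while cells-alone MC38 held 17.95 CPM on average, at least 655-fold higher with CT26 set to a floor of 3 counts over the group (0.0274 CPM). In HT29, SLC39A8 averaged 30.7 ± 2.37 CPM with SIS ECM and 28.8 ± 1.87 CPM in cells alone (SD, n = 6 each). SLC39A4 averaged 36.2 ± 3.74 and 38.3 ± 1.17 CPM in HT29, while in both mouse lines it stayed at or below 0.187 CPM in every library. SLC30A4 went the other way, with 0.401 ± 0.116 and 0.493 ± 0.144 CPM in HT29 far below its levels in both mouse lines given above. In cells alone, 14 of 18 tested members differed between MC38 and CT26, against 78.1% of all genes, a similar share. Besides Mt1, Mt2 and Slc39a8, MC38 was higher in Slc39a11 (log2 difference 1.14), Slc39a3 (1.11) and Slc39a7 (0.30). It was lower in 8, of which Slc30a9 (−1.24), Slc30a4 (−1.19) and Slc39a14 (−0.83) differed most.

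Levels of different genes were compared per length in mouse only, where the annotation gives the summed exon length. In cells-alone CT26, Slc30a4 led with 104 ± 6.74 CPM per kb (SD, n = 6), above Mt2 with 61.9 ± 8.98, Slc39a1 with 46.7 ± 4.59, Mt1 with 29.4 ± 4.42 and Slc39a7 with 26.2 ± 1.89 CPM per kb. Slc30a4 lay above Mt2 in every library, Mt2 and Slc39a1 overlapped, and so did Mt1 and Slc39a7. With SIS ECM the order of these 5 genes was the same in CT26, and Slc30a4 (90.3 ± 8.47 CPM per kb) and Mt2 (81.5 ± 26.5) then overlapped. In cells-alone MC38, Mt2 led with 265 ± 22.6 CPM per kb (SD, n = 5), ahead of Mt1 with 65.3 ± 6.398, Slc39a1 with 52.7 ± 1.58, Slc30a4 with 51.7 ± 3.47 and Slc39a7 with 36.4 ± 3.61 CPM per kb. With SIS ECM, Mt2 still led with 142 ± 29.8 CPM per kb, followed by Slc30a4 (58.8 ± 4.94), Slc39a1 (49.0 ± 2.55) and Mt1 (42.0 ± 7.17). Mt1 thus stood in the second place in cells-alone MC38 and in the fourth with SIS ECM, although Slc39a1 and Mt1 overlapped. The annotated exons of Mt1 span 1246 bases and those of Mt2 588 bases, so the level of Mt1 per length is low if shorter transcripts prevail.

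**Figure D4:**
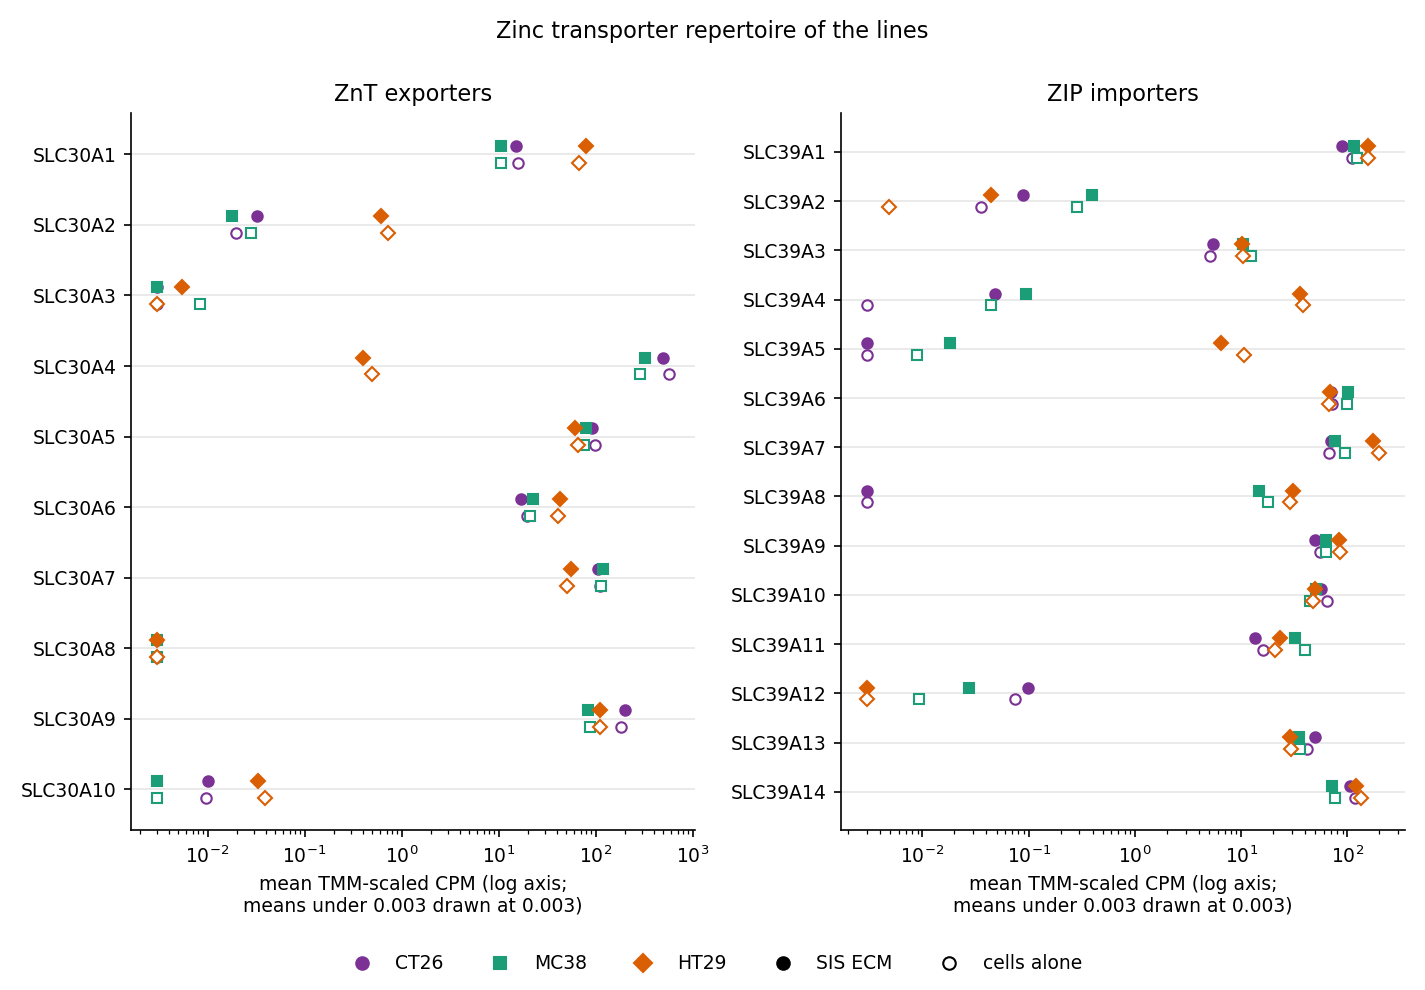
Mean TMM-scaled CPM of each SLC30A (ZnT) and SLC39A (ZIP) gene in the 3 lines on a log axis, with filled symbols for SIS ECM and open symbols for cells alone and with means under 0.003 drawn at 0.003. SLC39A8 is at 0 in CT26, SLC30A4 is near 0.4 to 0.5 CPM in HT29, and SLC39A4 and SLC39A5 reach more than 1 CPM in HT29 alone.

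Slc39a6 and Slc39a10, whose proteins join into one importer of the plasma membrane, followed library number in the mouse lines, a pattern noticed after their values were seen. In CT26, Slc39a10 lay at 29.5 to 40.7 CPM with SIS ECM and 42.8 to 48.6 CPM in cells alone in libraries 1 to 3, and at 76.1 to 85.0 and 80.9 to 85.2 CPM in libraries 4 to 6. In MC38 it lay at 41.0 to 41.9 and 36.1 to 39.6 CPM in libraries 1 to 3, and at 55.0 to 57.7 and 54.2 to 56.5 CPM in libraries 4 to 6. Slc39a6 was higher in libraries 1 to 3 in both lines. It lay at 78.3 to 90.2 CPM with SIS ECM and 81.7 to 88.0 CPM in cells alone there in CT26, and at 53.7 to 60.9 and 55.3 to 60.0 CPM in libraries 4 to 6. In MC38 it lay at 123 to 132 and 108 to 112 CPM in libraries 1 to 3, and at 80.2 to 87.3 and 81.2 to 84.3 CPM in libraries 4 to 6. The number ranges thus separated both genes in both mouse lines, and neither was called for SIS ECM in any line (adjusted p = 0.50 to 0.96). With a term for the number ranges, Slc39a10 fell in CT26 (log2 fold change −0.22, adjusted p = 0.042), and within libraries 1 to 3 Slc39a10 fell in CT26 (−0.41, adjusted p = 0.033) and Slc39a6 rose in MC38 (0.20, adjusted p = 0.0032).

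**Figure D5:**
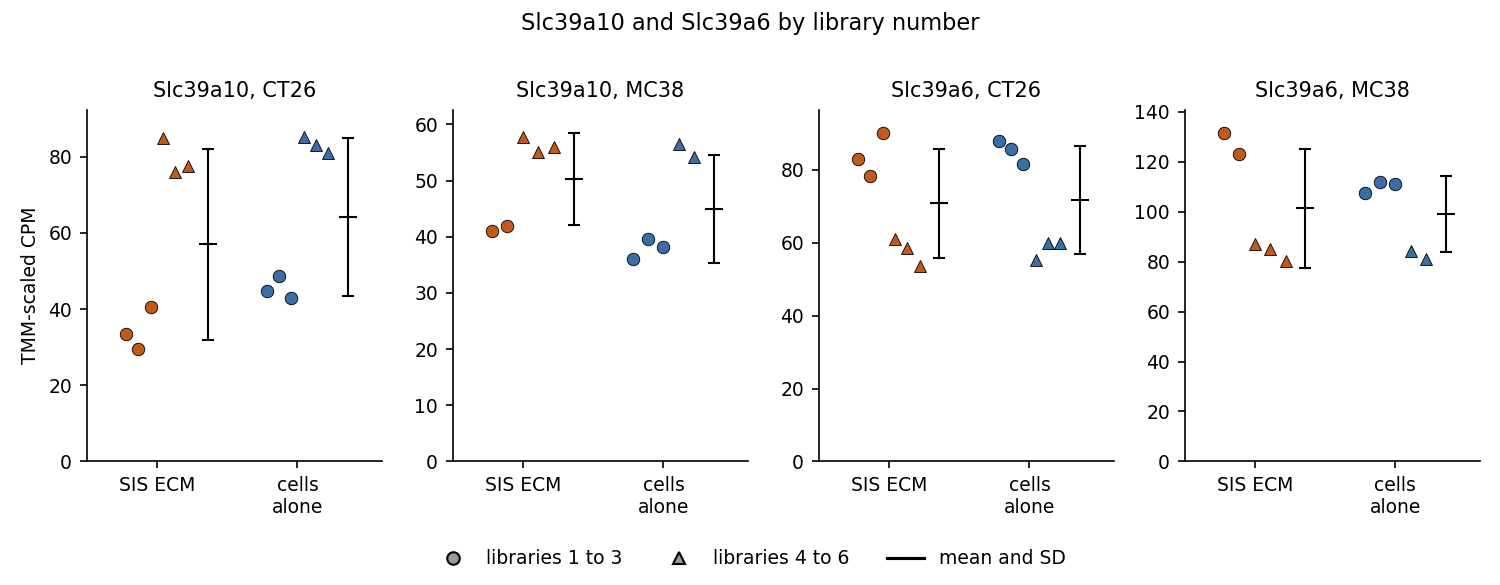
TMM-scaled CPM of Slc39a10 and Slc39a6 per library in CT26 and MC38, SIS ECM left and cells alone right, with circles for libraries 1 to 3 and triangles for libraries 4 to 6, and the mean with SD beside each group. In CT26, libraries 1 to 3 of Slc39a10 lie at 29.5 to 48.6 CPM and libraries 4 to 6 at 76.1 to 85.2 CPM, and Slc39a6 shows the opposite order.

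Related gene lists were read beside the members. Of all genes tested, 9.25% were called in CT26, 9.17% in MC38 and 13.5% in HT29. The lists are small, so 1 called gene is not read as a response of a list. Mtf1, which encodes the zinc sensor, was not called, with log2 fold changes of −0.26 ± 0.086 in CT26 (SE, adjusted p = 0.077), −0.084 ± 0.084 in MC38 (adjusted p = 0.56) and −0.027 ± 0.067 in HT29 (adjusted p = 0.84). Of the zinc sensing and handling list, 1 of 5 tested genes rose and 1 fell in MC38: the channel gene Trpm7 (log2 fold change 0.24) and Tmc6 (−0.31), whose product binds the exporter ZnT1 in human cells. None of 5 in CT26 and none of 6 in HT29 was called. Of the genes linked to MTF1 outside the metallothioneins, 1 of 6 fell in MC38 (Ndrg1, −0.77), 1 of 6 rose in CT26 (Selenow, 0.46) and none of 6 was called in HT29. Of the glucocorticoid response list, none of 7 in MC38 and none of 6 in CT26 was called, and 1 of 6 fell in HT29 (TSC22D3, −0.31). Alkaline phosphatases, zinc enzymes loaded by SLC30A5 to SLC30A7, could be tested in HT29 alone, where 1 of 3 fell (ALPG, −0.45), and the zinc-binding S100 genes were too low in all 3 lines.

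Hmox1 and Ftl1, 2 genes of the iron list, fell in MC38 and rose in CT26. A link of these 2 genes to the metallothioneins was not tested. Hmox1, the haem oxygenase induced by oxidative stress, averaged 51.9 ± 7.73 CPM with SIS ECM and 165 ± 54.3 CPM in cells alone in MC38 (SD, n = 5 each), a log2 fold change of −1.67 ± 0.20 (SE, adjusted p = 0.00039). In CT26 it averaged 71.3 ± 19.9 and 43.6 ± 7.60 CPM (SD, n = 6 each), a log2 fold change of 0.71 ± 0.17 (SE, adjusted p = 0.019). Ftl1, the ferritin light chain gene, fell in MC38 (log2 fold change −0.43 ± 0.065, SE, adjusted p = 0.0022). Its rise in CT26 was near the threshold (0.81 ± 0.24, adjusted p = 0.048). It averaged 976 ± 464 CPM with SIS ECM and 557 ± 73.9 CPM in cells alone there (SD), a wide spread with SIS ECM. In all, 2 of 12 iron genes were called in MC38, both lower, against 9.17% of all genes. In CT26, 3 of 10 were called, against 9.25%, and Tfrc, the transferrin receptor gene, fell there (−0.43). In HT29, 4 of 14 were called, against 13.5% of all genes. SLC11A2, the iron importer of the gut, rose (0.20). FTL (−0.30), the ferroxidase gene HEPH (−0.45) and the iron-sensing aconitase gene ACO1 (−0.34) fell. Of the copper genes, 1 of 10 was called in MC38 (Slc31a2, 0.45), none of 10 in CT26, and 2 of 12 in HT29, where the copper pump gene ATP7A rose (0.16) and the copper chaperone gene CCS fell (−0.24).

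The authors' deposited tables list 18 of the members in CT26, 18 in MC38 and 20 in HT29, of which 1, 4 and 5 have an adjusted p below 0.05 there. Of the members called in the present fits, 1 of 1, 4 of 5 and 4 of 4 are below 0.05 in the authors' deposited tables too, and none has the opposite sign. In the authors' deposited table the log2 fold change in MC38 is −0.98 for Mt2 and −0.70 for Mt1.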

How the data were processed

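Expected counts per gene were deposited by the authors, without normalisation, in 1 mouse and 1 human table, from paired-end libraries made with a stranded mRNA kit, per the labels. Named in the submitters' processing notes, without roles, are RSEM 1.3.1, STAR 2.7.0f, cutadapt 1.18 and limma, and the builds hg38 and mm10. For strand in the counting, no setting is given in the sources used here. Tables with a log2 fold change and p-values per gene and line were deposited by the authors as well, and 34 per-sample columns in those tables were not used. The authors' deposited enrichment tables were not used here.

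Expected counts were rounded to whole numbers and tested with edgeR 4.0.16 in R 4.3.3 (quasi-likelihood F test, two-sided, TMM, filterByExpr with a minimum count of 10, Benjamini-Hochberg adjustment over all genes tested, 1 fit per line). Differences between lines were interaction contrasts, with symbols standing in for orthologs between species. Limits and floors cover counting error only. Alternatives used DESeq2 1.42.0, limma-voom (limma 3.58.1), other scalings, no filter, omitted libraries, library number as a block, and number ranges. Deviations of same-numbered libraries from their group means correlated at 0.271 to 0.609 in 6 CT26 pairs and 0.208 to 0.414 in 4 MC38 pairs. The block was run as an alternative, and these values do not show that same-numbered libraries are pairs. The best match of a SIS ECM library had its own number in 1 of 6 and 2 of 4 pairs and its own number range in 6 of 6 and 4 of 4, so the range and the number cannot be told apart by this check.

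Members and lists were chosen with earlier results of these data known. Named were all metallothioneins above the filter, transporters with an adjusted p below 0.05 in at least 1 line, and partner-list genes below 0.05, at most 4 per line and list. Genes named outside that rule, and the promoters shown, were chosen after values were seen. All 26 mouse members matched the mm10 annotation and 22 had a RefSeq promoter window. Human coordinates and protein sequences were not used here. The edgeR script was tested on simulated data.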

Additional observations from a re-analysis of the deposited data

Results flagged for a closer look

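In 4 of 116 groups of libraries tested, 1 library lay apart from the rest of its group, and chance alone gives about 1 in 20. In HT29 with SIS ECM, library 1 held 56.4 CPM of SLC30A5 (the others 62.2 to 65.1 CPM), and library 4 held 25.7 CPM of SLC39A13 (the others 28.7 to 29.6 CPM) and 155 CPM of SLC39A7 (the others 176 to 181 CPM). In MC38 with SIS ECM, library 3 held 8.40 CPM of Slc39a3 (the others 10.5 to 11.2 CPM).

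Interaction tests of the response to SIS ECM between lines called 5 genes. Of 18 members tested between the mouse lines 3 were called, against 8.27% of all genes. Of 19 members tested between HT29 and mouse 2 were called, against 5.44%. The MC38 response minus the CT26 response was −1.30 log2 units for Mt2, −0.92 for Mt1 and 0.38 for Slc30a4. The HT29 response minus the mean mouse response was 0.39 for SLC39A11 and −2.40 for SLC39A4. SLC39A4 had few mouse counts, and its value is not read as a difference in response.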

How the results depend on the processing

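Mt1 and Mt2 in MC38, Slc39a1 in CT26 and SLC39A5 in HT29 kept their direction and passed under every alternative run, including both number ranges. Library number as a block gave 2281 genes and 3 members in CT26, 3 members in MC38, 1772 genes for the difference between the mouse lines, and 1015 genes and 1 member for that between HT29 and mouse, where SLC39A4 missed (adjusted p = 0.070). It turned Slc30a1 in MC38 to 0.053 and changed no other call than those given above. Same-numbered HT29 libraries correlated at −0.143 to 0.0733 in their deviations. The best match of a SIS ECM library there had its own number in 0 of 6 pairs and its own number range in 5 of 6. The block left the 4 HT29 calls. A term for the number ranges gave 3545 genes and 9 members in CT26 (2 higher, 7 lower). In MC38 it gave 3246 genes, and Slc30a1 was 0.054. For the difference between the mouse lines it gave 3740 of 14080 genes and 8 of 18 members. Libraries 1 to 3 alone gave 2484 genes and 5 members in CT26 (Slc30a1 0.069), 5287 genes and 11 members in MC38 (Slc30a1 0.083) and 719 genes in HT29. Libraries 4 to 6 alone gave 2333 genes and 3 members in CT26 (Slc39a7 −0.15), 2318 genes in MC38 (Slc30a1 0.0047), and 417 genes and 1 member (SLC39A5) in HT29, of whose 4 calls libraries 1 to 3 kept 3 (all but SLC39A14), with fewer libraries in each fit. DESeq2 called 3 members in CT26 (Slc39a1, Slc39a14 and Slc30a4), and without a filter 3 were called in MC38 and Slc30a4 missed in the difference between the mouse lines (adjusted p = 0.070). Without CT26 SIS ECM libraries 1 and 2, chosen after seeing the data, Slc39a7 in CT26 was −0.19, and the difference between the mouse lines gave 648 genes, with Slc30a4 missing (adjusted p = 0.085). The cause of these shifts was not tested.

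With 1 library left out, calls ran from 792 to 1364 genes and 1 to 2 members in CT26, 626 to 1948 genes and 2 to 6 members in MC38, and 1445 to 2464 genes and 4 to 5 members in HT29. MC38 gene counts were lowest without cells-alone library 2 (626) and highest without cells-alone library 4 (1948). The difference between the mouse lines ran from 813 to 1727 genes and 2 to 3 members, and that between HT29 and mouse from 515 to 802 genes and 1 to 2 members. Slc39a7 in CT26 ran from −0.081 to 0.091 and Slc30a1 in MC38 from −0.11 to 0.028. The second member in CT26 came without SIS ECM library 4 (Slc39a13, adjusted p = 0.038). Depth limits the genes near 3 counts, which could not be tested.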
